A study of Mus musculus with 6 samples.

Results

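The conjugating transferases of the liver were followed in mice without ACBP, the acyl-CoA binding protein encoded by Dbi. The genes were taken by name from the platform annotation: the glutathione transferase classes Gsta, Gstk, Gstm, Gsto, Gstp, Gstt and Gstz, the microsomal Mgst genes, the glucuronosyltransferase families Ugt1, Ugt2 and Ugt3, and the sulfotransferases Sult. This gave 56 genes. Of these, 46 had a probe set of their own, out of 18193 such genes on the array, and the other 10 were read only by probe sets annotated to several genes at once. Among the 46 were 23 glutathione transferases, 10 glucuronosyltransferases and 13 sulfotransferases. Where a gene had several probe sets, the one with the highest mean log2 signal over the 6 arrays stood for it.

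Livers came from fed mice of strain C57BL/6JBomTac, 21 days old, of genotype ACBP-/- or wild type (+/+). Each array held RNA pooled in equal amounts from 5 mice, so that 15 mice per genotype gave 3 wild-type and 3 knockout pools, and the variation between single mice within a pool cannot be seen. The sources used here give neither the sex of the mice nor the part of Dbi that was deleted. All values are log2 signals unless said otherwise, and every difference is knockout minus wild type.

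These enzymes carry out the conjugating step of detoxification, in which a polar group is joined to a reactive or fat-soluble molecule so that it can be exported in bile or urine. Glutathione transferases use the tripeptide glutathione, glucuronosyltransferases of the endoplasmic reticulum mostly use UDP-glucuronic acid, and cytosolic sulfotransferases use the sulfate donor PAPS. Their substrates include products of lipid peroxidation, bile acids, bilirubin, steroids and drugs. Several of the genes are known targets of NRF2, a factor that responds to oxidants and electrophiles, and of the nuclear receptors CAR and PXR.

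The arrays were alike in the share of probe sets called Present, 48.4% to 51.1%, and in median linear signal, 31.1 to 33.4. Pools within a genotype still differed over many genes, as given further below. The small number of arrays, 3 per genotype, limits the precision of each difference. Dbi read 15.94, 15.74 and 15.77 in wild-type pools 1 to 3 and 5.37, 5.32 and 5.15 in the knockout pools, which is the order the labels imply. Sex-linked genes differed between pools. Of 3 Y-linked genes, Eif2s3y and Kdm5d were Absent in knockout pool 1 (1.16 and 2.29) and Present in the other 5 pools (6.97 to 8.69 and 4.39 to 6.57). Uty read 5.87 in knockout pool 1 and 5.65 to 6.33 in the others. Xist, the RNA that silences an X chromosome in female cells, read 11.04, 9.14 and 11.01 in wild-type pools and 11.14, 10.03 and 9.04 in knockout pools, so both genotypes held pools with high and low values. The defining hepatocyte markers Alb, Apoa1 and Ttr were Present on every array, with log2 differences of -0.01 to 0.

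Sult1e1 and Gsta2 rose most, and no glucuronosyltransferase passed the test with all pools. Of the 46 genes, 36 had signals Present on at least 3 arrays and were tested. Of these, 7 were higher in knockout liver (Gsta2, Gstt3, Gsto1, Gstp1, Gstk1, Sult1e1 and Sult1d1) and 3 were lower (Gstp3, Gstm5 and Gstm7) at an adjusted p below 0.05 in limma's moderated test. That is 27.8% of the tested members, a count that includes Sult1e1, which passed the detection filter only through the knockout pools, where it was high. With Present calls required on all 6 arrays, 9 of 35 members were called. By the same choice of probe set, 7.25% of all 10580 tested genes were called, 3.38% as higher and 3.87% as lower. Members and all genes were not matched for signal strength, on which the moderated variance depends. Over all 22482 tested probe sets the share was 5.68%, with 2.68% higher and 3.0% lower. At an unadjusted p below 0.05 stood 16 of the 36 members, against 20.5% of all tested genes. The median log2 difference was 0.07 over the tested members and 0.02 over all tested genes. The pools of the genotypes did not overlap for 13 of 36 members, or 36.1%, against 25.7% of all tested genes. With 3 pools against 3, the smallest two-sided p that exact permutation allows for one gene is 0.1. By the authors' deposited table, 0 of the 46 genes passed a corrected p of 0.05, the smallest being 0.195, and 12 had an unadjusted p below 0.05, among them all 10 called here. That comparison rests on the same 6 arrays, so it gives no separate support to the calls.

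**Figure D1:**
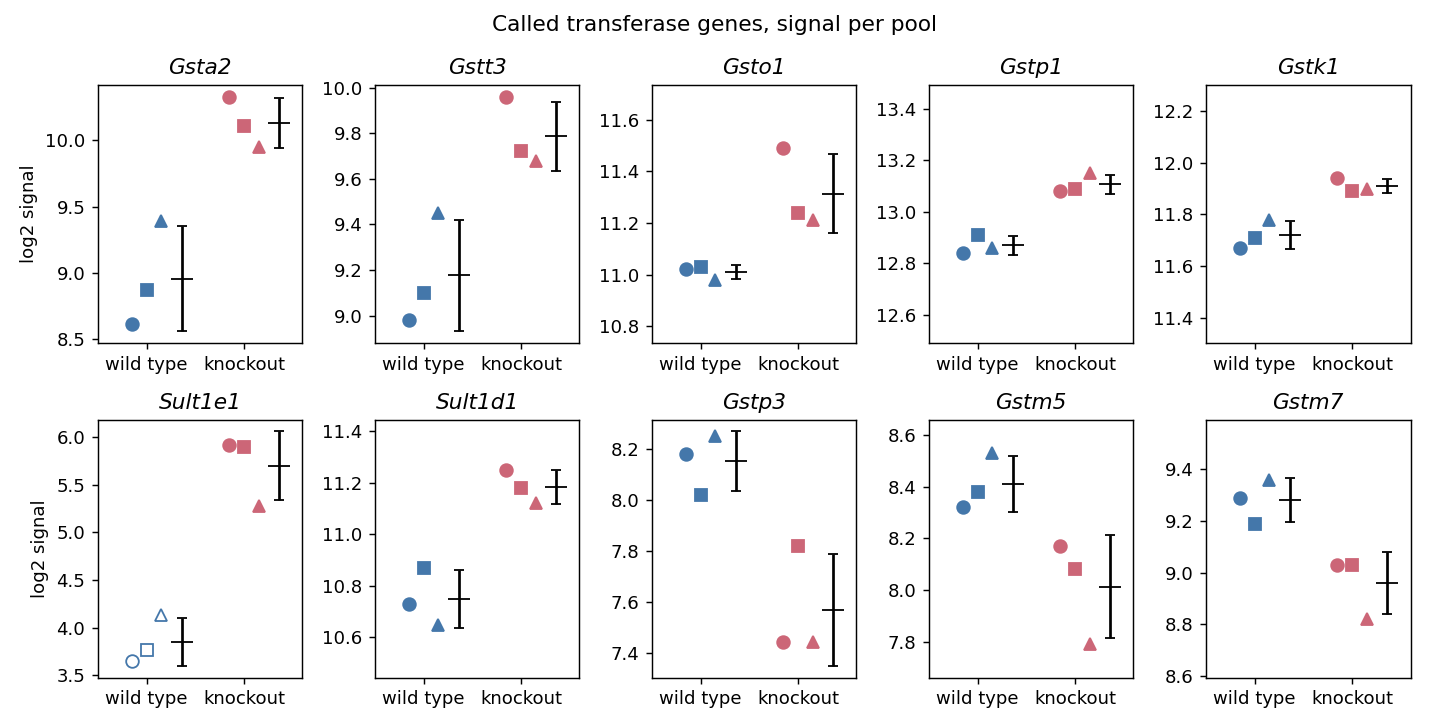
Log2 signal (y axis) of the 10 called transferase genes in each pool, wild type in blue and knockout in red, with circles, squares and triangles for pools 1, 2 and 3. Open symbols are readings not called Present, and black marks give the mean and SD of 3 pools. The pools of the genotypes do not overlap in any of the 10 panels, and Sult1e1 is the gene with open symbols, in all 3 wild-type pools.

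The upstream sequences of 4 called genes are printed because these genes frame the result: the 2 largest rises (Sult1e1 and Gsta2), and a rise (Gstp1) and a fall (Gstm5) whose windows hold letters of the antioxidant response element, the site NRF2 binds. They come from RefSeq, build GRCm38.p6, and give the 250 bases before the annotated start of the gene, 5′ to 3′ on its own strand. Capitals mark matches on either strand to TGACNNNGC or TGAGNNNGC (antioxidant letters), GCGTG (the core that the AhR complex binds) or AGGTCA (a nuclear receptor core site). Where matches overlap, as at the end of Gstp1 and in TGACCACGC of Gstm5, their capitals run together.
Sult1e1, chr5:87591612-87591861, minus strand: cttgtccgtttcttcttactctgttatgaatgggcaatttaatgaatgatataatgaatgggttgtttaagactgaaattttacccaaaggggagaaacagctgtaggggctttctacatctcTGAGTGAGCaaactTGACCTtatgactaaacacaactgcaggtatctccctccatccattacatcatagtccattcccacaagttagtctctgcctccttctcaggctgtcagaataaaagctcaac
Gsta2, chr9:78347146-78347395, minus strand: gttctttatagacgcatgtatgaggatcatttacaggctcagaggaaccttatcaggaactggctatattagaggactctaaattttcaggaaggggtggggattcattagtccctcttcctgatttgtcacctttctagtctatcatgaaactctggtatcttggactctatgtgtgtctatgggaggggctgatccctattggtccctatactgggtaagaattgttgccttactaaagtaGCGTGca
Gstp1, chr19:4037913-4038162, minus strand: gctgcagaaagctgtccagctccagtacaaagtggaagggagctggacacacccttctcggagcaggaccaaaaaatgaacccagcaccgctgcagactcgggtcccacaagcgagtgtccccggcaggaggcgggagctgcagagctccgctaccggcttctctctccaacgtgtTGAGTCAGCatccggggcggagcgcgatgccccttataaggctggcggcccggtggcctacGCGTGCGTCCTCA
Gstm5, chr3:107895604-107895853, plus strand: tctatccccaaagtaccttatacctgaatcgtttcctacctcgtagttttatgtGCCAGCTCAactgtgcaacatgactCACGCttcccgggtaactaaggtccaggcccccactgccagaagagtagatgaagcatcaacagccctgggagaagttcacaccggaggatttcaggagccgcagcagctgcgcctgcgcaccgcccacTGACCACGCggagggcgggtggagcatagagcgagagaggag

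RefSeq gave windows of 250 bases before to 50 after the start for 41 of the 46 genes, 53 windows in all. Of the 10 called genes, Gstm5 and Gstm7, both lower, held TGACNNNGC, which 12.4% of all 32851 promoter windows hold. Its other spelling TGAGNNNGC, searched after the windows had been read, was held by Sult1e1, Gstm5, Gstp1 and Gstp3, against 17.6% of all windows. In Gstp1 it begins 74 bases before the start. AGGTCA was found in Sult1e1 and Gstk1 (16.3% of all windows), and GCGTG in 5 called genes (32.4% of all windows). Letters in such windows are a description and show no binding.

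Among the alpha class glutathione transferases, Gsta2 was the one called with all pools. Gsta2 read 8.61, 8.87 and 9.39 in wild-type pools 1 to 3 and 10.33, 10.11 and 9.95 in the knockout pools. Every knockout pool was above every wild-type pool, though wild-type pool 3 lay nearer to the knockout values than the others did. The mean rose by 1.17 (SE 0.15, n = 3 pools per genotype), or 2.25-fold, with adjusted p = 5.72e-05. Its only probe set carries the suffix _a_at, and mouse Gsta1, a close relative not analysed here, could share its reads. Gsta4, known for conjugating the lipid peroxidation product 4-hydroxynonenal, had means of 10.46 ± 0.23 in wild-type and 10.73 ± 0.15 in knockout pools (SD, n = 3 pools, adjusted p = 0.142). Its pools overlapped, with 10.72 in wild-type pool 3 and 10.56 in knockout pool 3. Gsta4 was called as higher without wild-type pool 3 (0.40, adjusted p = 0.0158) and without knockout pool 3 (0.36, adjusted p = 0.0355). Gsta3 had means of 13.06 ± 0.10 and 13.07 ± 0.10 (adjusted p = 0.971), with a 95% interval of the difference from -0.11 to 0.13.

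All 7 mu class genes were Present on every array, and 2 of them, Gstm5 and Gstm7, were lower in knockout liver. Gstm5 read 8.32, 8.38 and 8.53 in wild-type pools and 8.17, 8.08 and 7.79 in knockout pools. It fell by 0.40 (SE 0.11, adjusted p = 0.0412). Gstm7 read 9.29, 9.19 and 9.36 in wild-type pools and 9.03, 9.03 and 8.82 in knockout pools, and fell by 0.32 (SE 0.09, adjusted p = 0.0452). The pools of the genotypes stayed apart in both genes, by less than 0.2 in each. A second, dim probe set of Gstm7 gave -0.01 (SE 0.19, adjusted p = 0.99), and did not repeat the fall.

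The other 5 mu class genes had log2 differences of -0.33 in Gstm6, -0.18 in Gstm4, -0.03 in Gstm2, 0.10 in Gstm1 and 0.26 in Gstm3, with adjusted p from 0.133 to 0.938. The 7 genes lie side by side on chromosome 3 in RefSeq, in the order Gstm5, Gstm7, Gstm6, Gstm3, Gstm2, Gstm1, Gstm4. On the chosen probe sets, the 3 most negative differences thus belong to the 3 genes at one end of the cluster. With all probe sets of a gene averaged, Gstm7 differed by -0.16, less than the -0.18 of Gstm4 at the other end. No test of position was made. Gstm1 has 4 probe sets, whose differences were 0.10, 0.14, 0.16 and 0.22, none of them called. Related transcripts of this class can bind each other's probe sets, in particular those with suffix _x_at or _s_at.

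The 2 pi class genes went opposite ways. Gstp1, a cytosolic enzyme that conjugates electrophiles, read 12.84, 12.91 and 12.86 in wild-type pools and 13.08, 13.09 and 13.15 in knockout pools. It rose by 0.24 (SE 0.04, adjusted p = 0.00285), or 1.18-fold, a difference that exceeded the ranges between pools of 0.08 in wild type and 0.07 in knockout. Gstp3 read 8.18, 8.02 and 8.25 in wild-type pools and 7.44, 7.82 and 7.44 in knockout pools. It fell by 0.59 (SE 0.12, adjusted p = 0.00484), and no knockout pool reached the lowest wild-type value. Both genes lie in the same cluster on chromosome 19. Gstp1 is named from 1 probe set with suffix _a_at, and near-identical copies of the gene could share its reads.

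**Figure D2:**
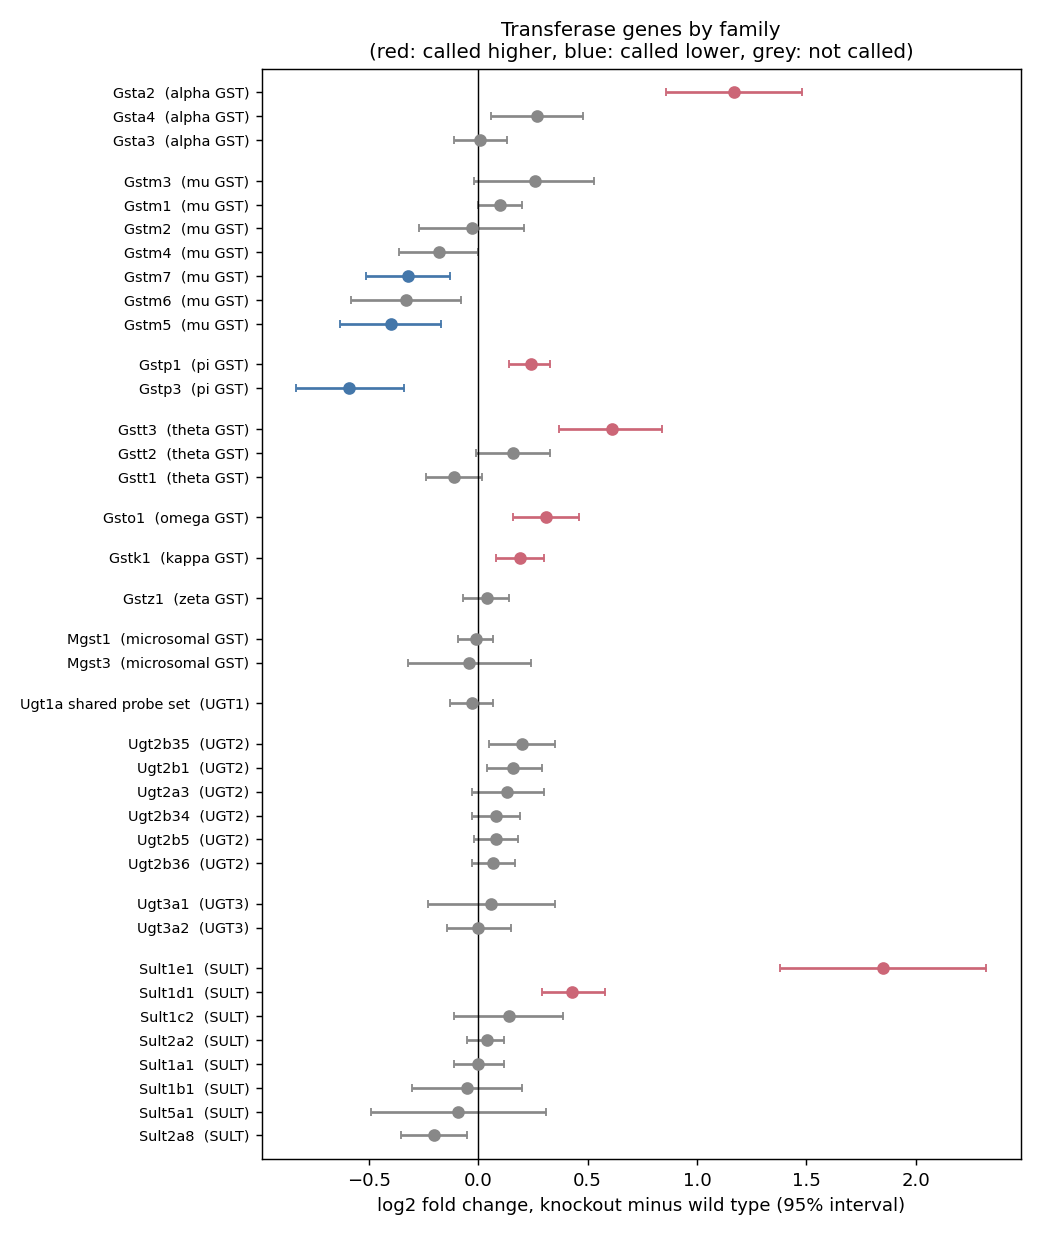
Log2 fold change of knockout over wild type (x axis, points) with its 95% interval (bars) for the 36 tested genes and the shared Ugt1a probe set, grouped by family. The glutathione transferases hold 8 of the 10 called genes and span -0.59 to 1.17, the UGT genes with a probe set of their own lie between 0 and 0.20, and Sult1e1 lies farthest to the right at 1.85.

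Of the theta class, which includes enzymes acting on small halogenated compounds, Gstt3 rose. It read 8.98, 9.10 and 9.45 in wild-type pools and 9.96, 9.72 and 9.68 in knockout pools. The difference was 0.61 (SE 0.11, adjusted p = 0.00252), or 1.52-fold, and the pools did not overlap. Its neighbours in the cluster on chromosome 10 did not pass the test, with -0.11 in Gstt1 (95% interval -0.24 to 0.02) and 0.16 in Gstt2 (95% interval -0.01 to 0.33). Gstt4 was called Absent on all 6 arrays and was not tested.

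The omega and kappa classes gave 1 rise each. Gsto1, an omega class enzyme with thioltransferase and dehydroascorbate reductase activity, read 11.02, 11.03 and 10.98 in wild-type pools and 11.49, 11.24 and 11.21 in knockout pools. It rose by 0.31 (SE 0.07, adjusted p = 0.0152), with knockout pool 1 the highest. Its chosen probe set has the suffix _x_at, and the other one gave 0.24 (SE 0.07, adjusted p = 0.0567). The call on the chosen probe set was lost without wild-type pool 1, wild-type pool 3 or knockout pool 1, with adjusted p of 0.0534, 0.0566 and 0.0671. Gstk1, the kappa class enzyme of mitochondria and peroxisomes, read 11.67, 11.71 and 11.78 in wild-type pools and 11.94, 11.89 and 11.90 in knockout pools. It rose by 0.19 (SE 0.05, adjusted p = 0.0458), the call closest to the threshold.

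Gstz1, which encodes the maleylacetoacetate isomerase of tyrosine breakdown, differed by 0.04 (95% interval -0.07 to 0.14). Of the microsomal enzymes, which sit in membranes and are not related in sequence to the cytosolic classes, Mgst1 read 13.85 ± 0.05 in wild type and 13.84 ± 0.03 in knockout. The 95% interval of its difference ran from -0.09 to 0.07. A second, dim probe set of Mgst1 gave -0.18 (95% interval -1.01 to 0.64). Mgst3 differed by -0.04 (95% interval -0.32 to 0.24). Mgst2 was called Present on 1 array, and Gsto2 on 0, so neither was tested.

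No glucuronosyltransferase was called with all pools. In limma's test 0 of 8 tested UGT genes had an adjusted p below 0.05. An unadjusted p below 0.05 was found for 2 of the 8, and for 20.5% of all tested genes. All 8 log2 differences were small, from 0 to 0.20, with a median of 0.08 against 0.02 over all tested genes. The 95% intervals of the chosen probe sets reached 0.35 at most, that is 1.275-fold. The UGT2 genes, which act on steroids, bile acids and drugs, contributed the larger of these. Ugt2b35 read 11.16, 11.26 and 11.23 in wild-type pools and 11.55, 11.44 and 11.25 in knockout pools (0.20, SE 0.07, adjusted p = 0.134). Without knockout pool 3, Ugt2b35 was called as higher by 0.28 (adjusted p = 0.00797). Its pools overlapped, whereas those of Ugt2b1 did not, at 11.59, 11.58 and 11.45 against 11.61, 11.76 and 11.74 (0.16, SE 0.06, adjusted p = 0.148).

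Ugt2b5 also had pools that did not overlap, with a difference of 0.08 (95% interval -0.02 to 0.18). Pools did not overlap for 25.0% of the tested UGT genes, near the 25.7% of all tested genes. Ugt2a3, Ugt2b34 and Ugt2b36 differed by 0.13, 0.08 and 0.07. Their pools overlapped in each case. Ugt2b37 and Ugt2b38 were Present on 0 and 1 arrays and were not tested. The UGT2 genes are near relatives and neighbours on chromosome 5, so one probe set can read transcripts of several of them.

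The Ugt1a cluster, whose genes join different first exons to shared final exons, was read by 3 probe sets annotated to 8 genes together. The brightest read 13.22, 13.13 and 13.08 in wild-type pools and 13.14, 13.06 and 13.14 in knockout pools, with a difference of -0.03 (95% interval -0.13 to 0.07). The genotypes overlapped. The other 2 probe sets gave -0.01 and -0.09, neither of them called. Single genes of the cluster cannot be told apart in these data. Of the UGT3 family, Ugt3a1 differed by 0.06 (95% interval -0.23 to 0.35) and Ugt3a2 by 0 (95% interval -0.14 to 0.15). A second probe set of Ugt3a1, Present on all 6 arrays, gave -0.19 (95% interval -0.44 to 0.06) and was not called. A probe set annotated to 2 Ugt2a genes was called Absent on all arrays.

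Sult1e1, the oestrogen sulfotransferase, had the largest difference of all members. It read 3.65, 3.77 and 4.13 in wild-type pools, each called Absent, and 5.92, 5.89 and 5.28 in knockout pools, each called Present. In linear units these are signals of 12.5 to 17.5 against 38.9 to 60.5. The log2 difference was 1.85 (SE 0.22, adjusted p = 3.71e-05). The ratio of signals was 3.60-fold, and the 95% interval of the log2 difference ran from 1.38 to 2.32. Because no wild-type reading was called Present, the size of the fold is uncertain. The gene passed the detection filter only through the knockout pools, where it was high. Without knockout pool 1, where Eif2s3y and Kdm5d were Absent, the difference was 1.74 (adjusted p = 0.000317). The detection filter of all 6 arrays was kept there. The Present calls of the pools left in would not have met it, so Sult1e1 was tested only through the omitted pool. The part of sex in it was not tested.

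Sult1d1, known in mice for sulfating catecholamines, rose at both of its probe sets. The brighter read 10.73, 10.87 and 10.65 in wild-type pools and 11.25, 11.18 and 11.12 in knockout pools, without overlap. It rose by 0.43 (SE 0.07, adjusted p = 0.000785), and the other by 0.47 (SE 0.08, adjusted p = 0.00201). Sult1d1 and Sult1e1 are neighbours on chromosome 5 in RefSeq. Sult1b1, next to them, had means of 7.70 ± 0.13 in wild-type and 7.65 ± 0.21 in knockout pools (SD, n = 3 pools, adjusted p = 0.88), with a 95% interval from -0.30 to 0.20.

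The other 5 tested sulfotransferases were not called. Sult2a8, described as a bile acid sulfotransferase of mouse liver, had means of 11.95 ± 0.16 in wild-type and 11.75 ± 0.08 in knockout pools (SD, n = 3, adjusted p = 0.126). Without wild-type pool 3 it was called as lower (-0.28, adjusted p = 0.0262). Sult1a1, the phenol sulfotransferase, differed by 0 (95% interval -0.11 to 0.12). Sult2a2, of the hydroxysteroid class, differed by 0.04 (95% interval -0.05 to 0.12). Sult1c2 differed by 0.14 and Sult5a1 by -0.09, with wider intervals. Sult1c1, Sult2b1, Sult4a1 and Sult6b1 were Absent on all 6 arrays, and Sult3a1 was Present on wild-type pool 1 only, so these 5 were not tested.

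Pools within a genotype differed in a patterned way. Wild-type pool 3 was the highest wild-type pool for 19 of 36 tested members (52.8%), against 39.1% of all tested genes. Its excess was plain in Gsta2, Gsta4, Gstm3 and Gstt3. Gstm3 read 10.87, 10.99 and 11.60 in wild-type pools and 11.47, 11.52 and 11.24 in knockout pools, and without wild-type pool 3 it was called as higher by 0.48 (adjusted p = 0.00177). Knockout pool 1 was the highest knockout pool for 22 of 36 members (61.1%) and for 58.0% of all tested genes. Knockout pool 3 was the lowest knockout pool for 25 of 36 members (69.4%), close to the 70.4% of all tested genes for which that was so.

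Genes that feed and control conjugation were read from lists of related genes. Over all tested genes, 3.38% were called higher and 3.87% lower, and the median log2 difference was 0.02. Of 13 tested genes of glutathione synthesis, recycling and breakdown, 3 were higher and 1 lower. Oplah, the 5-oxoprolinase, rose by 0.54 (SE 0.09, adjusted p = 0.00115). Ggct, the gamma-glutamylcyclotransferase that makes 5-oxoproline, fell by 0.49 (SE 0.11, adjusted p = 0.0154). Gclm, the modifier subunit of glutamate-cysteine ligase, rose by 0.28 (SE 0.07, adjusted p = 0.0221). The catalytic subunit Gclc read 11.55 in wild type and differed by 0.15 (adjusted p = 0.292). The median of this list was 0.15. Cth, which makes cysteine, was the third gene to rise, by 0.31 (SE 0.08, adjusted p = 0.0341).

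Of 14 tested genes of donor supply, 1 rose and 2 fell, where 3.38% and 3.87% of all tested genes did. Papss1, which makes the sulfate donor PAPS, fell by 0.47 (SE 0.11, adjusted p = 0.0139), while its relative Papss2 read 11.66 in wild type and differed by -0.04 (adjusted p = 0.795). Slc35b1, a nucleotide transporter of the endoplasmic reticulum, fell by 0.29 (SE 0.08, adjusted p = 0.0412). Ugp2, which makes UDP-glucose, rose by 0.18 (SE 0.05, adjusted p = 0.0434). The list median was 0.05. Of 6 tested exporters of conjugates 0 were called in limma's test, with a median of 0.06 and differences from -0.07 to 0.20.

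Of 14 tested regulators, 4 rose and 0 fell, with a median of 0.18. Among all tested genes 3.38% rose and 3.87% fell, with a median of 0.02. Nr1i3, which encodes CAR, read 9.83, 9.93 and 9.93 in wild-type pools and 10.40, 10.28 and 10.33 in knockout pools, and rose by 0.44 (SE 0.07, adjusted p = 0.00096). Nr1i2, which encodes PXR, rose by 0.46 (SE 0.10, adjusted p = 0.0122), and Ppara by 0.39 (SE 0.08, adjusted p = 0.006). The fourth was Nr1h4, which encodes the bile acid receptor FXR. Nfe2l2, which encodes NRF2, differed by 0.21 (SE 0.08, adjusted p = 0.184).

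Of 17 tested inducible genes outside the transferases, 4 rose and 0 fell, with a median of 0.15. The same shares of 3.38% and 3.87% and the median of 0.02 over all tested genes stand beside these. Ephx1, the microsomal epoxide hydrolase, rose by 0.47 (SE 0.07, adjusted p = 0.000288). Cyp3a13 rose by 0.44 (SE 0.08, adjusted p = 0.00188). Gclm, which stands in both lists, and Cyp2b13 were the others. Nqo1, a common marker of NRF2 activity, read 7.22 in wild type and differed by 0.38 (SE 0.12, adjusted p = 0.0965). The members share the arrays and controls with these genes, so no relation between the lists was tested.

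**Figure D3:**
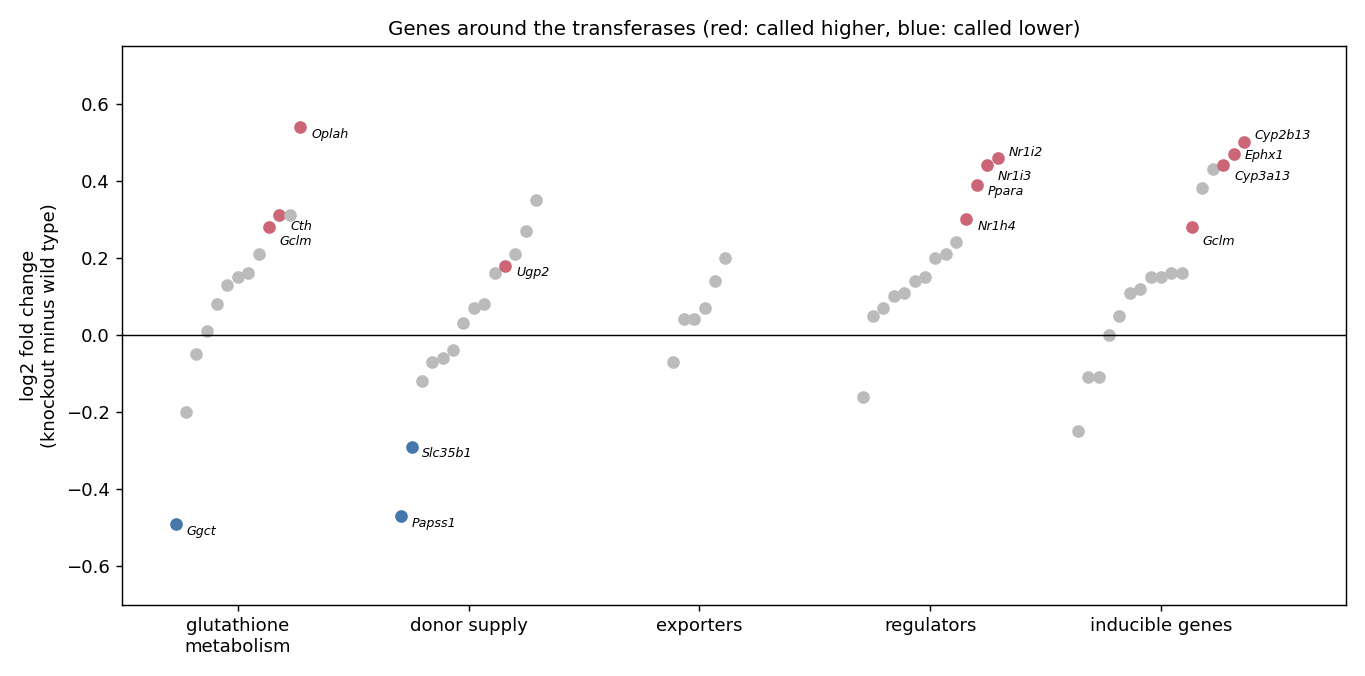
Log2 fold change of knockout over wild type (y axis) of each tested gene in 5 lists around the transferases (x axis), 1 point per gene, red where called higher, blue where called lower and grey where not called. The regulators hold 4 red points and the exporters hold none.

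Some markers of other liver cells were lower beside these results. For cholangiocytes, summed linear signals ranged from 658 to 845 among wild-type pools and from 413 to 518 among knockout pools. There 1 of 3 tested markers was lower (Prom1, log2 difference -0.96), while Krt19 and Sox9 were not called, at 0.12 and -0.08. Prom1, whose mean went from 9.15 to 8.19, is the one marker of that sum that was called. It is also the brightest by far, the next being Sox9 with means of 6.70 and 6.61. The sum therefore mainly follows Prom1 and does not describe the other markers. Epcam was Present on 1 array, and Krt7 and Cftr were Absent on all. For sinusoidal endothelium the sums were 4189 to 4329 and 3791 to 3937, with 1 of 5 lower (Clec4g, -0.27). For stellate cells and fibroblasts they were 8737 to 8884 and 7783 to 8340, with 2 of 5 lower. For Kupffer cells they were 5895 to 6729 and 6124 to 6292, with 1 of 7 lower (Marco, -0.44). Of 7 hepatocyte markers 0 were called in limma's test. Of 9 pericentral markers, 1 rose (Oat), and of 4 periportal markers 1 fell (Cyp2f2). Among all tested genes 3.38% were called higher and 3.87% lower. The part of cell composition in the transferase results was not tested, and in pooled tissue fewer cells of a type and less RNA per cell cannot be told apart.

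The calls differed in how firmly they stood, as the plot of calls by setting shows. Gsta2 and Sult1e1 were called in every setting in which they were tested, 15 and 14 settings beside the one reported. For Sult1e1 these include the omissions of single knockout pools, where it stayed in the test only because the filter of all 6 arrays was kept. Gstp3, Gstt3 and Sult1d1 lost the call in 1 setting, a test without the intensity trend in the variance. Gstp1 lost it there (adjusted p = 0.209) and under median centring (adjusted p = 0.09). Gsto1 lost it without the trend, with _x_at probe sets chosen last and in the 3 pool omissions named above. Gstk1, Gstm5 and Gstm7 were called in 5, 9 and 7 of the 15 settings. Each of these 3 lost the call when any 1 wild-type pool or knockout pool 2 was left out, and Gstk1 also without knockout pool 1. Their adjusted p then lay between 0.052 and 0.237. Gstm7 and Gstk1 also lost it with the pool number as a block. The signs of all 10 stayed as reported in each of these settings.

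**Figure D4:**
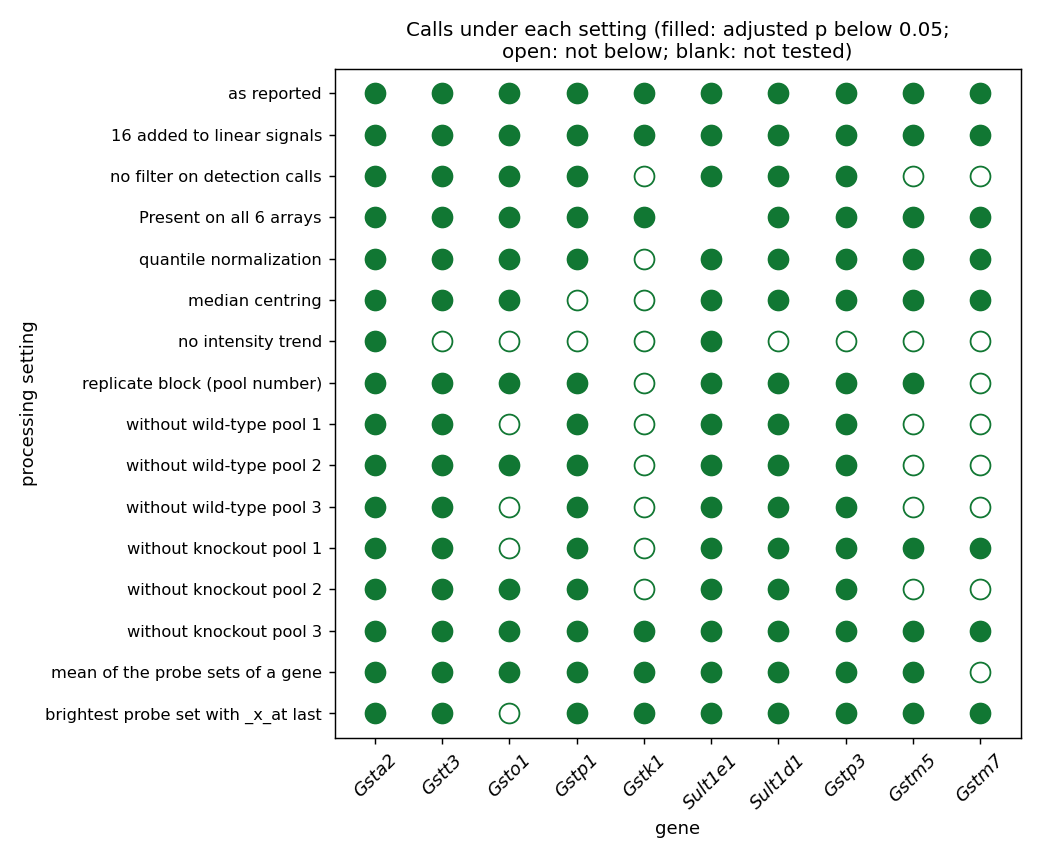
Calls of the 10 genes (x axis) under each processing setting (y axis), filled where the adjusted p was below 0.05, open where it was not, blank where the gene was not tested. The columns of Gsta2 and Sult1e1 hold no open circle, and the row without the intensity trend holds 8 open circles.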

How the data were processed

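Per the labels' protocols, biotin-labelled cRNA of pooled liver RNA was hybridised to Affymetrix arrays, and the submitters' processing notes name MAS5 without a version or settings. The deposited workbook holds log2 signals, detection calls, detection p-values and the authors' comparison (p-value, corrected p-value, absolute fold change and direction) for 45101 probe sets. The series matrix holds the same log2 values, so the planned repeat with it was not run. Other background corrections need probe-level files and were not tried.

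Log2 values were used as deposited, without a pseudocount. After 64 control probe sets were dropped, the 22482 Present on at least 3 of 6 arrays were tested. Genotypes were compared in limma 3.58.1 under R 4.3.3, using lmFit and eBayes (trend by intensity). P-values were adjusted by Benjamini-Hochberg across these 22482 probe sets. A gene was called at an adjusted p below 0.05. Of these probe sets 5.68% were called. The fit was tested on simulated data. P-values rest on the spread between pools, with the variance of each probe set moderated toward the intensity trend of all tested probe sets. Intervals are 95% intervals of the moderated fit.

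Symbols came from the platform annotation (34958 probe sets with 1 symbol, 932 with several, 9211 with none). All 46 symbols matched RefSeq GRCm38.p6 by Entrez number. The rule was to name called members and give the others by family with the brightest and dimmest named. Further members were named after their values were seen, and of the promoters printed only that of Gstm5 holds the TGACNNNGC of the rule. The members, lists and tests were chosen with earlier results of these data known.

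Pool numbers are shared by the genotypes in the labels, and nothing says that they mark a shared litter or day. Alternatives were 16 added to linear signals, other detection filters, centring on medians, quantile normalization, leaving out the intensity trend, a block for pool number, each pool left out, averaging all probe sets per gene and another choice of probe set. The detection filter was not redone when a pool was left out.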

Additional observations from a re-analysis of the deposited data

How the results depend on the processing

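Of 36 tested members 10 were called. The count was 7 to 10 under 16 added to linear signals, median centring, no detection filter, quantile normalization, a filter of Present on all 6 arrays, the replicate block, averaged probe sets per gene and the choice with _x_at last. Without the intensity trend it was 2 (Gsta2 and Sult1e1), when 378 of all probe sets were called instead of 1277. Leaving out 1 pool at a time gave 6 to 12 members and 639 to 3010 probe sets: the lowest counts came without wild-type pool 1 and the highest without knockout pool 3. In that last fit 2055 probe sets were called higher and 955 lower, against 602 and 675 with all pools. Without knockout pool 1 the count was 8. The replicate block gave 8 members and 1370 probe sets, losing Gstk1 and Gstm7. Deviations of same-numbered pools had correlations of -0.03, -0.01 and -0.08, and those of differently numbered pools lay between -0.06 and 0.09. With 3 pools per genotype, such correlations cannot show whether the numbers pair the pools. No called member changed sign in any setting, and 9 members that were not called did so without being called. Gstm6 was called with quantile normalization (-0.36) and without wild-type pool 2 (-0.45, adjusted p = 0.0408). Other gains came without wild-type pool 3 (Gsta4, Gstm3, Sult2a8) or knockout pool 3 (Gsta4, Ugt2b35). Adding 16 moved the log2 difference of Sult1e1 to 1.16. Sult1e1 was not tested when Present calls were required on all 6 arrays. The cause of these shifts was not tested. Dim signals limit Sult1e1 and all untested members.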

Other observations

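Values of neighbouring relatives are given side by side. In the theta cluster the log2 difference was 0.61 in Gstt3 and -0.11 in its neighbour Gstt1. In the cluster on chromosome 5 it was 1.85 in Sult1e1, 0.43 in Sult1d1 and -0.05 in Sult1b1, and in the tested Ugt2 genes beside them 0.07 to 0.20. In Ugt3a1 and Ugt3a2, neighbours on chromosome 15, it was 0.06 and 0. No test of a difference between genes was made.

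Members with their own probe set on the chromosome of Dbi showed small differences. Gsta3 and Mgst3 lie 543 and 310 coding genes from Dbi in RefSeq, and their log2 differences were 0.01 and -0.04.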
